A study of Zea mays with 36 samples.

Results

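Maize embryos were profiled by RNA sequencing, and 292 short noncoding RNA features of the genome annotation, those whose IDs begin with ENSRNA, were followed across 2 lines and 6 ages. A feature was taken when it reached 1 RPKM (a read count scaled to feature length and to library size) in at least 3 of the 36 libraries. The table lists 63340 features, of which 28048 reach that minimum. It lists 1861 ENSRNA features: 292 reach the minimum, 308 have reads without reaching it and 1261 have no read in any library. The libraries came from a line labelled as high in oil and a line labelled as low in oil, each sampled every 5 days between 15 and 40 days after pollination, with 3 libraries in each of the 12 groups and 18 in each line. Embryos were cut out of seeds that had stood in water overnight, and the RNA was purified on oligo(dT) beads before library construction. Each oil level is 1 line, so oil content and every other genetic difference between the lines cannot be told apart. The labels do not say that replicates came from separate plants, so p-values measure the spread between these libraries.

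In plant annotations, IDs of this kind are given to noncoding RNA loci that are recognised by sequence family, among them transfer RNAs, ribosomal RNAs, the small nuclear RNAs of the spliceosome, the small nucleolar RNAs that guide RNA modification, the RNA of the signal recognition particle and microRNA precursors. Many of these RNAs carry no poly(A) tail and are encoded by many near-identical copies. The oil of a maize kernel is stored mainly in the embryo, in particular the scutellum, and builds up as the embryo matures. The sources used here do not pair single ENSRNA IDs with an RNA class, a name or a position, so members are ordered by length, which was recovered from the RPKM values. Members of 1 length may be copies of 1 gene, and reads may be split between them in a way that depends on how the authors treated reads that map to several places; values of single members of a shared length are uncertain for that reason. The embryo label was not checked against marker genes for the same lack of names.

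The libraries hold 41247297 to 66760746 counted reads. Members took 106 ± 8.199 to 192 ± 23.2 RPM, reads scaled to library size alone (group means ± SD, n = 3), the lowest in high-oil embryos at 25 days and the highest in high-oil embryos at 40 days. Between 135 and 200 members reached 1 RPKM in a single library. In a feature of 100 bases, 1 RPKM equals 4.12 reads in the smallest library and 6.68 in the largest, and the median member had 9 reads per library, so single values of low members are coarse. The cDNA fragments selected for sequencing were 250 to 300 bp long per the labels' protocols, and 272 members are shorter than 250 bases, so a read counted for a member can come from a longer transcript that covers it. Several libraries stood apart in ways that touch results given further on. Over all features tested, the lowest mean correlations with the other libraries of the group were 0.934 for the high-oil library at 40 days, replicate 1, 0.938 for the high-oil library at 35 days, replicate 2, and 0.941 for the low-oil library at 40 days, replicate 1. The low-oil library at 25 days, replicate 2, had almost no reads from members of 156 bases. To look for RNA of the other line, features with at least 20 reads in every library of 1 line and a median of 0 reads in the other were counted. Of 135 such low-oil features, 14 to 57 had a read in a high-oil library, and their reads came to 0.162% to 4.04% of the low-oil mean, the highest in replicate 1 at 40 days. Of 146 such high-oil features, 23 to 54 had a read in a low-oil library, at 0.158% to 5.20% of the high-oil mean, the highest in replicate 3 at 25 days.

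The members are short and weakly represented. Their lengths run from 63 to 1812 bases with a median of 100, against a median of 1428.5 bases over all 28048 features tested. By length, 21 members were under 80 bases, 174 were 80 bases or more and under 120, 69 were 120 or more and under 200, and 28 were 200 bases or longer. The median of the members' mean level was 1.75 RPKM, against 5.77 RPKM over all features tested. Of the 292, 108 had a mean below 1 RPKM and 27 a mean of 10 RPKM or more. There were 36 members at 1 RPKM or more in every library, and 75 with a read in every library. Because the minimum could be met through 1 group alone, 18 members reached 1 RPKM in high-oil libraries only and 21 in low-oil libraries only, while 207 reached it in at least 3 libraries of each line. The matching shares of all features were not counted.

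The 12 members with the highest means held 16.6% to 42.3% of member reads in a library. Among the shortest, 3 of the 4 members of 77 bases belong to these 12. ENSRNA049477727 had a lowest, median and highest level of 20.3, 53.0 and 80.7 RPKM in high-oil libraries, against 14.1, 40.0 and 94.9 RPKM in low-oil libraries. ENSRNA049479819 had 10.7, 33.1 and 65.9 RPKM in high-oil libraries, against 16.6, 26.2 and 56.1 RPKM in low-oil libraries. ENSRNA049479827 had 14.5, 35.3 and 49.0 RPKM in high-oil libraries, against 6.72, 23.6 and 40.6 RPKM in low-oil libraries. The ranges of the lines overlapped throughout for these 3 members, and none of the 4 members of 77 bases was called between lines averaged over stages or between 15 and 40 days. ENSRNA049476258, of 83 bases, was at 5.13, 14.0 and 31.7 RPKM in high-oil libraries and at 2.75, 17.1 and 31.4 RPKM in low-oil libraries. It was called neither between lines averaged over stages nor between ages.

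ENSRNA049475307, of 99 bases, had the highest mean of all members, 78.9 RPKM. Its lowest, median and highest levels were 1.52, 54.8 and 99.1 RPKM in high-oil libraries, against 57.0, 98.8 and 207 RPKM in low-oil libraries. The lines overlapped, and 3 high-oil libraries stood far below the rest: 4.12 RPKM in replicate 2 at 30 days, and 1.52 and 2.12 RPKM in replicates 2 and 3 at 35 days. ENSRNA049465410, of 120 bases, was close to it at 26.5, 70.3 and 111 RPKM in high-oil libraries and 31.3, 60.2 and 153 RPKM in low-oil libraries, with no call in either comparison (averaged over stages, log2 difference 0.08 ± 0.18 SE, limma adjusted p = 0.79). ENSRNA049461747, of 94 bases, had 10.04, 18.5 and 39.8 RPKM in high-oil libraries, against 18.1, 40.5 and 84.6 RPKM in low-oil libraries. Its difference averaged over stages was a log2 value of -0.99 ± 0.16 SE (limma adjusted p = 1.4e-05), just short of the minimum change, and it was called lower in high-oil embryos at 15, 20 and 25 days. In high-oil embryos it rose with age, at 29.8, 37.2 and 39.8 RPKM at 40 days against 17.9, 15.0 and 13.4 RPKM at 15 days (log2 change 1.15 ± 0.40 SE, limma adjusted p = 0.015). The other 5 of the 12, among them 3 of the 20 members of 156 bases, changed with age or differed between lines and are described with those results.

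Between the lines, more of the members differed than of all features. A feature was called when limma on log2(RPKM + 1) gave a Benjamini-Hochberg adjusted p under 0.05 over all 28048 features and a log2 difference of at least 1 in either direction. Differences on this scale understate the change of low features. In bulk embryos, fewer cells of a type and less RNA per cell cannot be told apart. Averaged over the 6 stages, 37 members (12.7%) were called, 17 higher and 20 lower in high-oil embryos, against 5.83% of all features tested. Of the 17, 8 reached 1 RPKM in high-oil libraries only, and of the 20, 6 did so in low-oil libraries only, so part of the count follows from how members were chosen. The median log2 difference was -0.106 over the members and -0.075 over all features. Reads of both lines were assigned to 1 reference genome, and a line whose copy differs from the reference in sequence can lose reads there. The part of that in these differences was not tested.

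**Figure D1:**
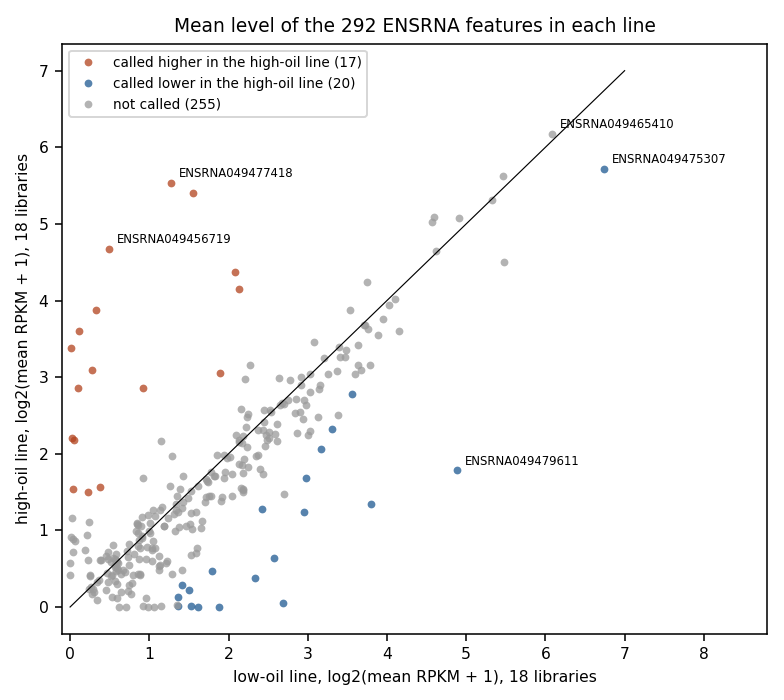
Each point is 1 of the 292 members, with its mean over 18 high-oil libraries on the vertical axis and over 18 low-oil libraries on the horizontal axis, both as log2(mean RPKM + 1), and the line marks equal levels. The 17 members called higher in high-oil embryos include several close to 0 in low-oil embryos, and the 20 called lower include ENSRNA049475307, the member with the highest mean.

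The smallest adjusted p-values belonged to members that 1 line hardly showed. ENSRNA049456719, of 95 bases, had a lowest, median and highest level of 8.75, 20.7 and 48.7 RPKM in high-oil libraries, against 0, 0.210 and 1.78 RPKM in low-oil libraries. The lines did not overlap. Its 2134 reads in high-oil and 35 in low-oil libraries gave a ratio per total reads of 63.4 (95% exact binomial interval 45.5 to 91.3, counting error only), and the log2 difference averaged over stages was 4.10 ± 0.14 SE (limma adjusted p = 2e-20). ENSRNA049458208, of 98 bases, had 2.09, 8.89 and 20.1 RPKM in high-oil libraries, with 902 reads in all, against 1 read in the 18 low-oil libraries. Its log2 difference was 3.23 ± 0.13 SE (limma adjusted p = 6.3e-19). ENSRNA049458208 met the minimum in high-oil libraries only, so its p-value is not independent of how members were chosen. ENSRNA049456719 and ENSRNA049458208 were both called at each of the 6 stages.

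Members of 156 bases made up 4 more of the 6 members that were called higher in high-oil embryos at every stage. The share of all features called in 1 direction at every stage was not counted. ENSRNA049477418 had 20.8, 40.3 and 91.4 RPKM in high-oil libraries, against 0, 1.11 and 4.69 RPKM in low-oil libraries. The log2 difference averaged over stages was 4.36 ± 0.20 SE (limma adjusted p = 1.7e-17), the largest of any member. ENSRNA049479918 had 4.90, 27.03 and 114 RPKM in high-oil libraries, against 0, 0.908 and 7.49 RPKM in low-oil libraries. These were 2 of the 12 most abundant members, and for ENSRNA049479918 the lines overlapped by 1 high-oil library, at 4.90 RPKM. ENSRNA049478282 had 2.27, 9.91 and 22.3 RPKM in high-oil libraries and at most 0.525 RPKM in a low-oil library. ENSRNA049479549 had 2.41, 6.35 and 15.6 RPKM in high-oil libraries and at most 0.874 RPKM in a low-oil library. ENSRNA049478282 and ENSRNA049479549 thus met the minimum in high-oil libraries only.

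Most members of a run of neighbouring ID numbers differed between the lines in the same direction. Of the 6 members between ENSRNA049456692 and ENSRNA049456789, 5 were called higher in high-oil embryos averaged over stages, against 2.86% of all features called higher. The group was picked after its values were seen, and the IDs are not tied to positions here. The 5 were ENSRNA049456719, described above, and 4 more of 86 to 100 bases. ENSRNA049456702 had 9.26, 15.97 and 43.1 RPKM in high-oil libraries, against 0, 2.70 and 9.78 RPKM in low-oil libraries. ENSRNA049456692 had 0.825, 14.6 and 40.7 RPKM in high-oil libraries, against 0, 1.75 and 11.2 RPKM in low-oil libraries. The lines overlapped in both, narrowly for ENSRNA049456702 and more widely for ENSRNA049456692. ENSRNA049456769 had 0.355, 5.96 and 14.8 RPKM in high-oil libraries and at most 0.491 RPKM in a low-oil library, and was called at 5 stages. It too met the minimum in high-oil libraries only. ENSRNA049456789 was low in both, with means of 1.96 RPKM in high-oil and 0.304 RPKM in low-oil libraries. The member that was not called, ENSRNA049456746, had means of 0.230 RPKM in high-oil and 0.506 RPKM in low-oil libraries.

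In the other direction, ENSRNA049470807 was the 1 member called lower in high-oil embryos at all 6 stages. It is 95 bases long, with 3 reads, all in 1 library, in high-oil embryos, and a lowest, median and highest level of 0.383, 5.19 and 12.3 RPKM in low-oil libraries. The high-oil over low-oil read ratio was 0.00613 (95% exact binomial interval 0.00126 to 0.0180), and the log2 difference averaged over stages was -2.43 ± 0.20 SE (limma adjusted p = 4.3e-11). It met the minimum in low-oil libraries only, so this p-value is not independent of how members were chosen. ENSRNA049479611, of 156 bases, had a larger fitted difference of -3.77 ± 0.43 SE (limma adjusted p = 2.9e-08). It had 0, 0.0543 and 36.3 RPKM in high-oil libraries, against 0.105, 19.3 and 68.9 RPKM in low-oil libraries. High-oil libraries stood at 36.3 RPKM in replicate 1 at 40 days, 5.87 RPKM in replicate 3 at 35 days and at most 0.903 RPKM elsewhere. The 1 low-oil library in that low range was replicate 2 at 25 days, at 0.105 RPKM. ENSRNA049479014, of 480 bases, had 0.0358, 0.8001 and 7.32 RPKM in high-oil libraries, against 0.548, 13.1 and 28.4 RPKM in low-oil libraries. It was called lower in high-oil embryos at 4 stages, with a log2 difference averaged over stages of -2.51 ± 0.29 SE.

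The remaining members with the widest differences in that direction were of 4 lengths. ENSRNA049478519 and ENSRNA049479266, both of 156 bases, had log2 differences averaged over stages of -2.02 ± 0.28 SE and -1.69 ± 0.29 SE. Their medians were 0 and 0.459 RPKM in high-oil libraries, against 3.55 and 3.77 RPKM in low-oil libraries. ENSRNA049461590, of 140 bases, had a median of 1.02 RPKM in high-oil and 6.44 RPKM in low-oil libraries, with a log2 difference of -1.64 ± 0.22 SE. ENSRNA049459026, of 86 bases, had 24 reads in high-oil and 309 in low-oil libraries, with a log2 difference of -1.46 ± 0.26 SE. ENSRNA049475307, the most abundant member, followed at -1.45 ± 0.33 SE (limma adjusted p = 0.0011), and among single stages it was called at 35 days, where 2 of its 3 lowest libraries lie. The 16 differences chosen by size for the average over stages kept their call in every alternative in which they were tested, each library left out in turn included. For ENSRNA049475307 no alternative left out its 3 lowest libraries together, so its call without them was not tested.

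Some members were at or near 0 throughout a line. In the 18 high-oil libraries 12 members had at most 3 reads in all, 6 of them none. In the 18 low-oil libraries 7 members had at most 3 reads in all, 2 of them none. These members met the minimum through the other line alone. Such features were not counted among all features tested, so the numbers do not show a trait of the members. ENSRNA049461520, of 105 bases, was without a read in high-oil embryos and had 251 reads in low-oil embryos, so its level was at least 80.4-fold lower in high-oil embryos, set against a floor of 3 reads over the line. ENSRNA049461468 likewise had no read in high-oil libraries and 225 reads in 13 of the 18 low-oil libraries. ENSRNA049472011, of 310 bases, had 2 reads in high-oil libraries against 569 in low-oil libraries, where all 18 libraries had reads. ENSRNA049473467, of 84 bases, had 315 reads in high-oil libraries, in 16 of 18, against 1 read in low-oil libraries.

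Stage by stage, between 23 and 30 members were called. At 15 days, 11 members were higher and 13 lower in high-oil embryos, 8.22% of members, against 5.72% of all features (2.95% higher and 2.77% lower). At 20 days, 17 were higher and 12 lower, 9.93% against 6.85% of all features (3.31% higher and 3.54% lower). At 25 days, 11 were higher and 17 lower, 9.59% against 7.36% of all features (3.24% higher and 4.12% lower). At 30 days, 14 were higher and 9 lower, 7.88% against 6.30% of all features (2.92% higher and 3.38% lower), and without the high-oil library at 30 days, replicate 2, 15 were called. At 35 days, 19 were higher and 11 lower, 10.3% against 8.27% of all features (3.14% higher and 5.13% lower). At 40 days, 16 were higher and 7 lower, 7.88% against 6.88% of all features (3.40% higher and 3.47% lower), and without the low-oil library at 40 days, replicate 3, 15 were called. In this fit the share of members called in either direction was above that of all features at each stage, by least at 40 days (7.88% against 6.88%). With limma-voom on the recovered reads it was below at every stage from 20 to 40 days. At 30 days that fit called 17 of 292 members and 2281 of 28048 features. The share was also below at 30 days with a pseudocount of 0.1 (25 members and 2422 features). Without the 3 libraries least like their group it was below at 40 days (22 members and 2320 features). Some members met the minimum through 1 line alone, so part of these counts follows from how members were chosen. In all, 70 members (24.0%) were called at 1 stage or more, against 17.2% of all features, and 4 (1.37%) were called in opposite directions at different stages, against 0.225% of all features.

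With age, a smaller share of members than of all features changed, and in high-oil embryos most of those that changed rose. Between 40 and 15 days in high-oil embryos, 38 members (13.0%) were called, 32 higher and 6 lower at 40 days. Of all features, 31.5% were called, 10.3% higher and 21.2% lower. In low-oil embryos 28 members (9.59%) were called, 16 higher and 12 lower at 40 days, against 32.3% of all features, 11.0% higher and 21.4% lower. The median log2 change was 0.297 over members and -0.239 over all features in high-oil embryos, and 0.091 over members and -0.236 over all features in low-oil embryos. In both lines 7 members rose and 3 fell, and 1 moved in opposite directions. The shares of all features called in both lines were not counted, so these numbers do not show a trait of the members. With libraries scaled by median of ratios, which gave a median change of all features of 0.024 in high-oil embryos and 0.02 in low-oil embryos, the split was 48 higher and 4 lower in high-oil embryos and 28 higher and 8 lower in low-oil embryos. With no filter on low values the low-oil split was 8 higher and 9 lower. Members were lower than all features tested, with median levels of 1.75 and 5.77 RPKM. The part of level in the smaller share of members called was not tested. With a minimum of 5 RPKM, 30 of the 144 members tested were called in high-oil embryos and 21 in low-oil embryos.

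**Figure D2:**
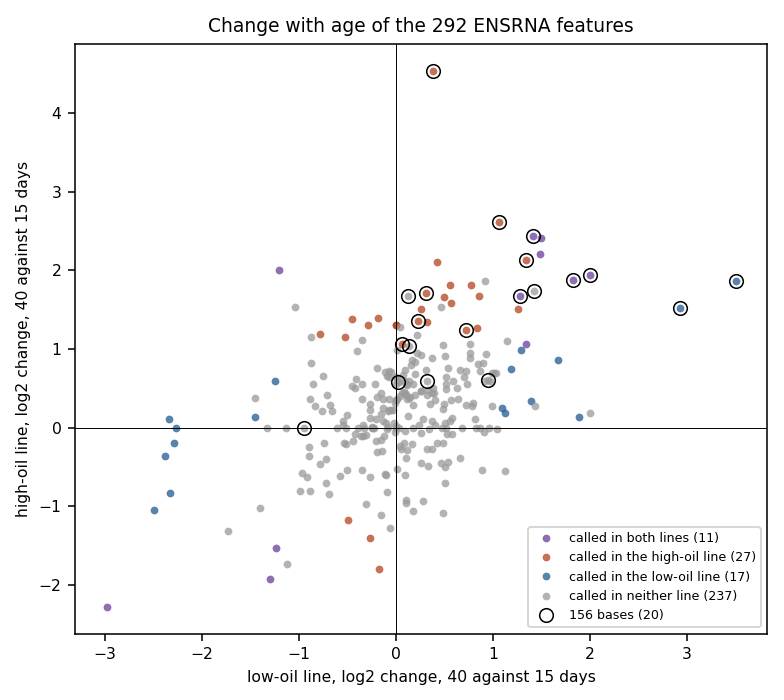
Each point is 1 of the 292 members, with its log2 change between 40 and 15 days in high-oil embryos on the vertical axis and in low-oil embryos on the horizontal axis, on the log2(RPKM + 1) scale. Open circles mark the 20 members of 156 bases, of which 11 were called higher at 40 days in high-oil embryos and 6 in low-oil embryos.

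The members that fell were led by ENSRNA049476983, of 124 bases and the fourth most abundant. High-oil embryos had 4.36, 12.2 and 13.7 RPKM at 40 days, against 54.0, 35.3 and 59.2 RPKM at 15 days. Low-oil embryos had 0.808, 11.6 and 17.8 RPKM at 40 days, against 82.6, 44.2 and 55.2 RPKM at 15 days. The ages did not overlap in either line. The log2 change was -2.28 ± 0.57 SE in high-oil embryos (limma adjusted p = 0.0011) and -2.98 ± 0.57 SE in low-oil embryos (limma adjusted p = 5.4e-05). Its 2 companions of 126 bases also fell in low-oil embryos. ENSRNA049476980 had 0.318, 0 and 1.69 RPKM at 40 days, against 6.04, 7.43 and 9.57 RPKM at 15 days, a log2 change of -2.49 ± 0.67 SE. ENSRNA049479848 had 0, 3.69 and 0.390 RPKM at 40 days, against 20.3, 3.81 and 7.04 RPKM at 15 days, a log2 change of -2.33 ± 0.62 SE. With the compared groups alone in the fit, the last of these lost its call (adjusted p = 0.054). In high-oil embryos neither companion was called (log2 changes of -1.05 ± 0.67 SE and -0.83 ± 0.62 SE). All 3 members of 124 to 126 bases were therefore called lower at 40 days in low-oil embryos, against 21.4% of all features, and 1 of the 3 in high-oil embryos, against 21.2%. The set was picked around the length of ENSRNA049476983 after its values were seen. Its counts therefore do not show a trait of members of that length.

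ENSRNA049458826, just under 120 bases long, also fell in both lines. High-oil embryos had 7.80, 25.2 and 23.7 RPKM at 40 days, against 52.1, 59.4 and 41.8 RPKM at 15 days. Low-oil embryos had 7.91, 26.7 and 28.6 RPKM at 40 days, against 35.5, 68.1 and 37.1 RPKM at 15 days. The ages did not overlap. The log2 change was -1.53 ± 0.47 SE in high-oil embryos (limma adjusted p = 0.0065) and -1.24 ± 0.47 SE in low-oil embryos (limma adjusted p = 0.025). The high-oil call was lost without replicate 1 at 40 days (-1.02, adjusted p = 0.081), and the low-oil call without replicate 1 at 40 days (-0.68, adjusted p = 0.25), without replicate 2 at 15 days (-0.94, adjusted p = 0.13) and with median-of-ratios scaling (-0.84, adjusted p = 0.10).

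ENSRNA049472786, of 100 bases, was the third to fall in both. High-oil embryos had 0, 3.10 and 0.899 RPKM at 40 days, against 6.65, 6.36 and 6.55 RPKM at 15 days, a log2 change of -1.92 ± 0.55 SE (limma adjusted p = 0.0038). Low-oil embryos had no read at 40 days and 1.40, 5.25 and 0 RPKM at 15 days. That call (log2 change -1.30 ± 0.55 SE, limma adjusted p = 0.044) was lost when any 1 of 5 libraries was left out, at its weakest without replicate 2 at 15 days (-0.63, adjusted p = 0.36). The 3 remaining members that fell in high-oil embryos were ENSRNA049456702, ENSRNA049456719 and ENSRNA049469912. ENSRNA049456719 had 8.75, 23.9 and 24.6 RPKM at 40 days, against 42.9, 34.3 and 44.4 RPKM at 15 days, and lost its call without replicate 1 at 40 days (log2 change -0.71, adjusted p = 0.087). ENSRNA049456702 had 9.26, 16.7 and 16.5 RPKM at 40 days, against 32.8, 43.1 and 38.4 RPKM at 15 days, with no overlap. Its call (log2 change -1.40 ± 0.59 SE, limma adjusted p = 0.044) was lost without any 1 of the 6 libraries compared.

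Among the 12 members that fell in low-oil embryos were 4 others with large changes. ENSRNA049457038, of 114 bases, had 0.351, 0.136 and 3.73 RPKM at 40 days, against 8.43, 12.6 and 6.98 RPKM at 15 days (log2 change -2.38 ± 0.63 SE). ENSRNA049453717, of 90 bases, had 0.668, 2.41 and 4.55 RPKM at 40 days, against 15.6, 23.6 and 9.10 RPKM at 15 days (log2 change -2.34 ± 0.58 SE). Neither overlapped between ages, and in high-oil embryos their changes were -0.36 ± 0.63 SE and 0.11 ± 0.58 SE, not called. ENSRNA049459026 had 0.699, 0 and 3.05 RPKM at 40 days, against 4.42, 28.7 and 3.97 RPKM at 15 days, and lost its call without replicate 2 at 15 days (log2 change -1.45, adjusted p = 0.061). ENSRNA049461681, of 94 bases, had 0, 1.98 and 0.697 RPKM at 40 days, against 5.32, 9.96 and 0.484 RPKM at 15 days. Its call was lost when replicate 1 or 2 at 15 days or replicate 1 at 40 days was left out, with adjusted p of 0.080, 0.20 and 0.13.

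**Figure D3:**
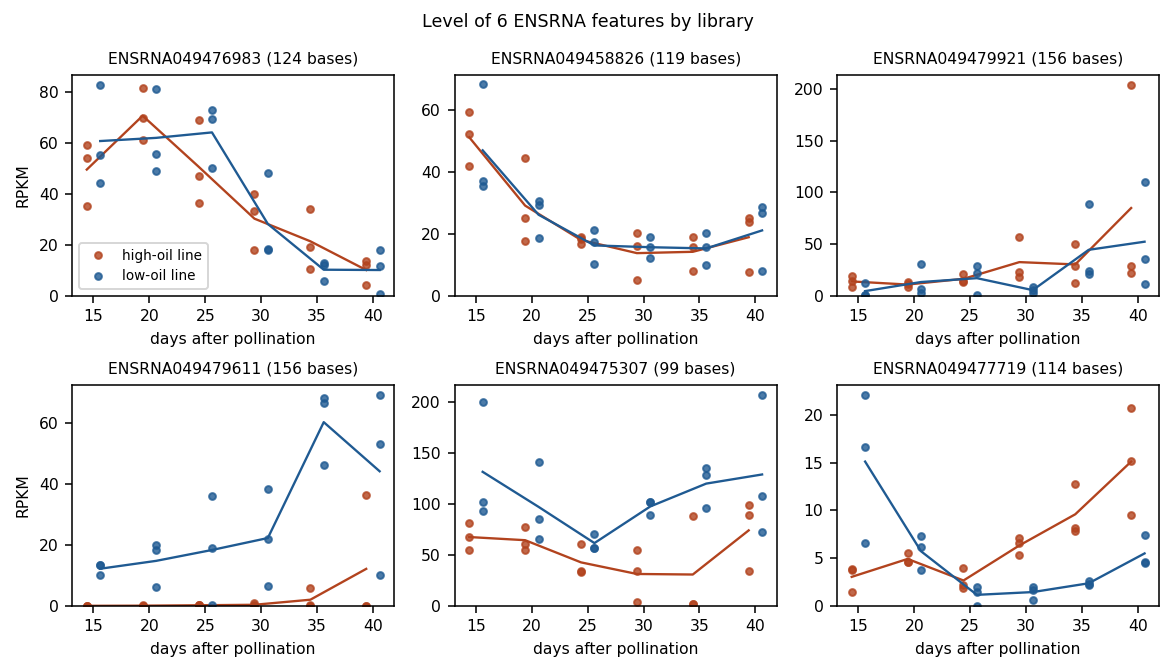
Each panel shows 1 member over the 6 ages in days after pollination, with RPKM on the vertical axis, points for the 3 libraries of a group and lines through their means, high-oil embryos drawn to the left of low-oil embryos. ENSRNA049476983 and ENSRNA049458826 fell in both lines, ENSRNA049479921 was highest in 1 high-oil library at 40 days (204 RPKM), ENSRNA049479611 and ENSRNA049475307 were lower in high-oil embryos averaged over stages, and ENSRNA049477719 ran in opposite directions.

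The members of 156 bases were the largest group of equal length, with 20 members among 54 ENSRNA features of that length that had reads. In high-oil embryos 11 of the 20 rose between 15 and 40 days and none fell, against 10.3% of all features that rose, with a median log2 change of 1.68. In low-oil embryos 6 rose and none fell, against 11.0%, with a median of 0.83. Among the other 272 members, 21 rose and 6 fell in high-oil embryos and 10 rose and 12 fell in low-oil embryos. The set was chosen after its values were seen. The high-oil count was 8 without replicate 1 at 40 days and 7 with the compared groups alone in the fit. The low-oil count was 2 without replicate 2 at 15 days or with no filter on low values, and 4 with the compared groups alone or with limma-voom on the recovered reads. Without replicate 1 at 15 days or replicate 1 or 3 at 40 days it was also 4.

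Summed over the 20 members, the level in high-oil embryos was 73.6 ± 16.4 RPKM at 15 days, 145 ± 55.6 at 20 days, 83.6 ± 3.96 at 25 days, 169 ± 26.4 at 30 days, 253 ± 104 at 35 days and 374 ± 94.7 at 40 days (SD, n = 3 each). The low-oil sum was 43.5 ± 8.50 RPKM at 15 days, 49.6 ± 17.0 at 20 days, 67.4 ± 59.5 at 25 days, 57.2 ± 23.6 at 30 days, 181 ± 8.68 at 35 days and 182 ± 104 at 40 days. In both lines every library at 40 days lay above every library at 15 days. The low-oil library at 25 days, replicate 2, stood apart at 0.843 RPKM, 8 reads spread over 5 members, against 116 and 85.7 RPKM in the other libraries of its group, which had 1106 and 712 such reads. The same library was within its group for the 9 members of 290 to 330 bases (52.8 RPKM, against 55.8 and 144 RPKM), but it was also far below its group in the 7 members of 1002 to 1812 bases (1.34 RPKM, against 15.3 and 8.43 RPKM).

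**Figure D4:**
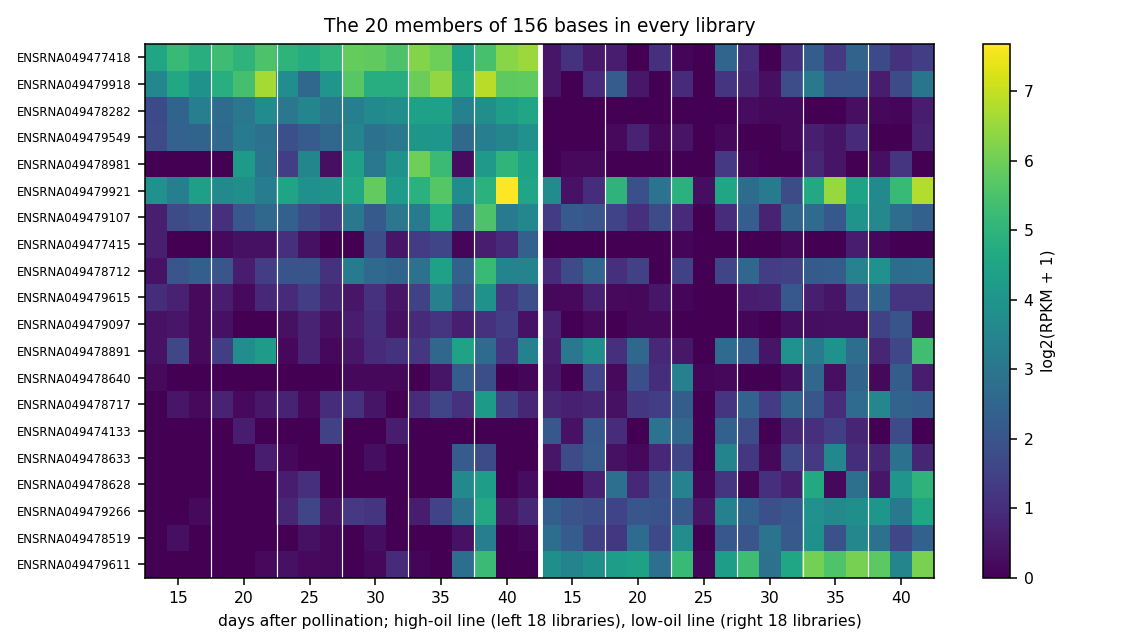
Rows are the 20 members of 156 bases, ordered by their log2 line difference averaged over stages, and columns are the 36 libraries, high-oil embryos on the left and low-oil embryos on the right, each from 15 to 40 days, and colour gives log2(RPKM + 1). The top rows are bright in high-oil embryos and dark in low-oil embryos, the bottom rows the reverse apart from replicate 3 at 35 days and replicate 1 at 40 days of high-oil embryos, and replicate 2 at 25 days of low-oil embryos is dark throughout.

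The members of 156 bases were divided between the lines. Averaged over stages, 5 of the 20 were higher and 5 lower in high-oil embryos, against 2.86% and 2.96% of all features. The higher ones were ENSRNA049477418, ENSRNA049479918, ENSRNA049478282, ENSRNA049479549 and ENSRNA049478981. The lower ones were ENSRNA049479611, ENSRNA049478519, ENSRNA049479266, ENSRNA049478633 and ENSRNA049474133. In 2 high-oil libraries several of the 156-base members lower in high-oil embryos on average were present. ENSRNA049479266 had 23.7 RPKM in replicate 1 at 40 days, against 0.331 and 0.768 RPKM in the other libraries of that group. ENSRNA049478628, which was not called between lines, had 18.8 RPKM there, against 0 and 0.192 RPKM, and 11.3 RPKM in replicate 3 at 35 days, against 0 RPKM in both others of that group. Those libraries kept ENSRNA049477418, at 42.4 and 20.8 RPKM, and had reads in 26 and 40 of the 135 low-oil features, at 4.04% and 0.833% of the low-oil mean. The part of RNA of the other line in these values was not tested. Without these 2 and the low-oil library at 25 days, replicate 2, 5 members of this length were higher and 6 lower in high-oil embryos, and 8 rose with age in each line.

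The largest rise of any member was that of ENSRNA049478981 in high-oil embryos. It had 16.5, 31.3 and 21.1 RPKM at 40 days and no read at 15 days, a log2 change of 4.54 ± 0.95 SE (limma adjusted p = 0.00018). In low-oil embryos it stayed at 1.44 RPKM or less in every library. ENSRNA049479918 had 114, 54.3 and 55.0 RPKM at 40 days, against 10.8, 22.8 and 14.3 RPKM at 15 days in high-oil embryos, a log2 change of 2.13 ± 0.60 SE (limma adjusted p = 0.0038), a call lost with a pseudocount of 0.1 (adjusted p = 0.082). ENSRNA049479107 had 44.8, 7.72 and 11.0 RPKM at 40 days, against 0.568, 2.35 and 2.95 RPKM at 15 days, a log2 change of 2.62 ± 0.60 SE (limma adjusted p = 0.00051). These 3 did not overlap between ages. In low-oil embryos ENSRNA049479107 changed by 1.06 ± 0.60 SE, not called.

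ENSRNA049479921, the most abundant member of 156 bases, rose in low-oil embryos, with 11.2, 36.02 and 110 RPKM at 40 days, against 12.1, 0.293 and 1.02 RPKM at 15 days. The log2 change was 3.5 ± 1.01 SE (limma adjusted p = 0.0043), the ages overlapped by 1 library, and limma-voom on the recovered reads gave an adjusted p of 0.055. In high-oil embryos its change of 1.87 ± 1.01 SE was not called (adjusted p = 0.12), with 29.0, 204 and 21.9 RPKM at 40 days. ENSRNA049478628 rose in low-oil embryos to 0.385, 14.9 and 31.2 RPKM at 40 days, against 0, 0 and 0.583 RPKM at 15 days, and lost its call when any 1 of 4 libraries was left out. Without replicate 3 at 40 days its log2 change was 2.01 (adjusted p = 0.16), against 2.93 ± 1.10 SE with all libraries.

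Of the 7 members that rose in both lines, 4 were 156 bases long. ENSRNA049478712 had 35.3, 9.93 and 9.70 RPKM at 40 days, against 0.284, 3.09 and 4.04 RPKM at 15 days in high-oil embryos, a log2 change of 2.44 ± 0.60 SE. Low-oil embryos had 13.9, 5.56 and 5.88 RPKM at 40 days, against 0.898, 2.34 and 4.67 RPKM at 15 days, and that call (log2 change 1.41 ± 0.60 SE, limma adjusted p = 0.049) was lost in many alternatives, at an adjusted p of 0.22 without replicate 1 at 40 days or replicate 1 at 15 days. ENSRNA049478717 had 17.2, 1.76 and 0.768 RPKM at 40 days, against 0, 0.370 and 0.155 RPKM at 15 days in high-oil embryos, and 10.7, 4.46 and 3.88 RPKM at 40 days, against 0.770, 0.586 and 0.729 RPKM at 15 days in low-oil embryos. Its low-oil change of 2.0 ± 0.59 SE kept its call in every alternative, and its high-oil change fell short without replicate 1 at 40 days (0.92, adjusted p = 0.14). The high-oil calls of ENSRNA049479266 and ENSRNA049479615 were also lost without that library, with log2 changes of 0.55 (adjusted p = 0.46) and 0.88 (adjusted p = 0.12). Their low-oil calls (1.82 ± 0.71 SE and 1.28 ± 0.51 SE) were each lost without several single libraries, at their weakest with adjusted p of 0.12 without replicate 3 at 40 days and 0.22 without replicate 1 at 40 days.

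**Figure D5:**
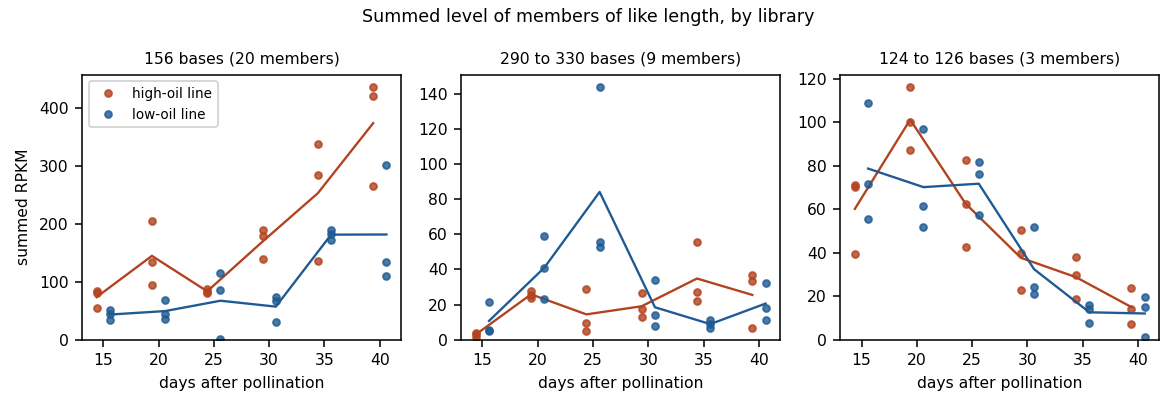
Each panel sums the RPKM of members of like length over the 6 ages in days after pollination, with points for the 3 libraries of a group, lines through their means, and high-oil embryos drawn to the left of low-oil embryos. The 156-base sum is higher at 40 than at 15 days in both lines, the sum of the 9 members of 290 to 330 bases peaks at 25 days in low-oil embryos, and the sum of the 3 members of 124 to 126 bases falls.

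The other 3 members that rose in both lines were 304 to 308 bases long and belong to 9 members between 296 and 323 bases, again grouped after their values were seen. ENSRNA049477080 had 1.65, 11.4 and 8.97 RPKM at 40 days, against 0.729, 0.444 and 0.319 RPKM at 15 days in high-oil embryos, a log2 change of 2.21 ± 0.60 SE (limma adjusted p = 0.0024). Low-oil embryos had 5.27, 10.2 and 3.82 RPKM at 40 days, against 4.61, 0.827 and 0.524 RPKM at 15 days, a log2 change of 1.48 ± 0.60 SE. ENSRNA049477077 had 1.88, 8.88 and 8.07 RPKM at 40 days, against 0, 0.0626 and 0.630 RPKM at 15 days in high-oil embryos, a log2 change of 2.41 ± 0.61 SE, and its low-oil change was 1.49 ± 0.61 SE. The low-oil calls of both were lost when any 1 of 4 libraries was left out, with adjusted p of 0.059 to 0.20. ENSRNA049477082 rose by 1.07 ± 0.35 SE in high-oil embryos, where leaving out any 1 of 3 libraries took the change below 1, and by 1.34 ± 0.35 SE in low-oil embryos. Over the 9, 4 rose in high-oil embryos, against 10.3% of all features, and 3 in low-oil embryos, against 11.0%. These counts were 2 without high-oil replicate 3 at 15 days or replicate 2 at 40 days, and 1 without any of 4 low-oil libraries.

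The course of these 9 members differed most between the lines at 25 days. There 8 of the 9 were lower in high-oil embryos, against 4.12% of all features, with a median log2 difference of -2.0. Their summed level in high-oil embryos was 2.99 ± 1.06 RPKM at 15 days, 25.9 ± 2.08 at 20 days, 14.5 ± 12.5 at 25 days, 19.1 ± 7.02 at 30 days, 34.9 ± 18.01 at 35 days and 25.5 ± 16.6 at 40 days (SD, n = 3 each). The low-oil sum was 10.7 ± 9.33 RPKM at 15 days, 41.0 ± 18.02 at 20 days, 84.1 ± 51.6 at 25 days, 18.5 ± 13.8 at 30 days, 8.94 ± 2.30 at 35 days and 20.6 ± 10.6 at 40 days. At 25 days the libraries of high-oil embryos were at 9.53, 5.13 and 28.7 RPKM and those of low-oil embryos at 55.8, 52.8 and 144 RPKM, without overlap. The count of 8 fell to 2 without low-oil replicate 3, the low-oil library with the most reads from high-oil features (5.20% of the high-oil mean), and to 4 without high-oil replicate 1 or replicate 2, and it was 4 with the compared groups alone in the fit. The part of RNA of the other line in the level of that low-oil library was not tested. At 35 days 2 of the 9, ENSRNA049477080 and ENSRNA049477082, were called higher in high-oil embryos, against 3.14% of all features. ENSRNA049477080 had 27.1, 6.13 and 9.98 RPKM in high-oil embryos, against 3.22, 2.37 and 2.88 RPKM in low-oil embryos, a log2 difference of 1.77 ± 0.60 SE (limma adjusted p = 0.044). At 25 days the same member had 5.20, 2.58 and 12.9 RPKM in high-oil embryos, against 22.7, 22.1 and 51.1 RPKM in low-oil embryos, a log2 difference of -2.18 ± 0.60 SE (limma adjusted p = 0.011). Of all 28 members of 200 bases or more, 12 were lower in high-oil embryos at 25 days and none higher, and 6 were lower without low-oil replicate 3.

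Outside these sets, single members rose in 1 line. In high-oil embryos ENSRNA049477188, of 107 bases, had 5.599, 5.47 and 2.66 RPKM at 40 days, against 0.414, 0.360 and 0 RPKM at 15 days, a log2 change of 2.11 ± 0.64 SE (limma adjusted p = 0.0059), and in low-oil embryos its change of 0.42 ± 0.64 SE was not called. In low-oil embryos ENSRNA049459156, also of 107 bases, had 14.6, 8.10 and 27.2 RPKM at 40 days, against 2.24, 3.84 and 4.04 RPKM at 15 days, a log2 change of 1.89 ± 0.49 SE (limma adjusted p = 0.0016). ENSRNA049459076, of 98 bases, had 19.0, 10.7 and 44.4 RPKM at 40 days in low-oil embryos, against 5.51, 7.93 and 4.64 RPKM at 15 days, a log2 change of 1.67 ± 0.40 SE (limma adjusted p = 0.00072). None of these 3 overlapped between ages in the line named. The high-oil changes were 0.14 ± 0.49 SE and 0.86 ± 0.40 SE for the last 2, neither called.

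The change with age was itself compared between the lines by an interaction term, high-oil change minus low-oil change, which called 3 members (1.03%), 2 with a higher and 1 with a lower change in high-oil embryos, against 2.74% of all features (1.32% and 1.42%). ENSRNA049477719, of 114 bases, had opposite courses. High-oil embryos had 20.7, 9.51 and 15.1 RPKM at 40 days, against 3.89, 3.72 and 1.49 RPKM at 15 days. Low-oil embryos had 7.38, 4.48 and 4.59 RPKM at 40 days, against 16.7, 22.0 and 6.58 RPKM at 15 days. The ages did not overlap in high-oil embryos and overlapped by 1 library in low-oil embryos. The log2 change was 2.0 ± 0.38 SE in high-oil embryos and -1.20 ± 0.38 SE in low-oil embryos, and their difference of 3.20 ± 0.53 SE (limma adjusted p = 0.00029) kept its call in every alternative. Between the lines it was called lower in high-oil embryos at 15 days (log2 difference -1.92 ± 0.38 SE) and higher at 30, 35 and 40 days (1.62, 1.63 and 1.28, each ± 0.38 SE).

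The other interactions concerned members near 0 in 1 line. ENSRNA049461520 had no read in any high-oil library, and in low-oil embryos it had 0.763, 0.295 and 2.03 RPKM at 40 days, against 9.72, 16.1 and 3.25 RPKM at 15 days. Its interaction of 2.27 ± 0.53 SE (limma adjusted p = 0.012) is therefore the low-oil fall alone, and was not called without low-oil replicate 2 at 15 days (1.83, adjusted p = 0.055). ENSRNA049469912, of 160 bases, had no read at 40 days and 3.46, 1.57 and 2.73 RPKM at 15 days in high-oil embryos, and 3 reads, all in 1 library at 15 days, in low-oil embryos. Its interaction was -1.63 ± 0.38 SE (limma adjusted p = 0.010). The 3 high-oil libraries at 15 days are its highest, so ENSRNA049469912 met the minimum through the group whose fall is tested. ENSRNA049461520 met it in low-oil libraries only. The p-values of both are therefore not independent of how members were chosen. Limma-voom on the recovered reads called neither ENSRNA049469912 (adjusted p = 0.30) nor ENSRNA049461520 (adjusted p = 0.56). Neither was called with a pseudocount of 0.1 (limma adjusted p = 0.10 and 0.21).

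Some of the members closest to the minimum rest on few reads. By their third-highest RPKM the last members taken were ENSRNA049470918 at 1.004, ENSRNA049476173 at 1.02 and ENSRNA049479590 at 1.06 RPKM, and the first left out were ENSRNA049467843 at 0.996, ENSRNA049455358 at 0.992 and ENSRNA049476674 at 0.967 RPKM. ENSRNA049470918 had 21 reads in high-oil and 24 in low-oil libraries, and ENSRNA049476173 had 30 and 31. ENSRNA049479590, of 772 bases, had 288 and 377. Of the 292 members, 193 were called in none of the 10 comparisons and 99 (33.9%) in at least 1, against 48.0% of all features.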

How the data were processed

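The deposited table gives 1 RPKM value per feature and library, which is the authors' own unit. FastQC, TopHat2, Cufflinks and the maize build B73 RefGen_v4 are named in the submitters' processing notes, without versions or roles. The annotation release, the counting tool, the use of strand and the treatment of reads that map to several places are not given in the labels or headers. Embryo RNA was selected with oligo(dT) beads and sequenced in pairs on an Illumina HiSeq, per the labels' protocols. All 36 columns were used and 0 were left out.

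In every feature with reads, its values in RPKM are multiples of a single step, the worth of 1 read. Reads, library totals and feature lengths were recovered from those steps, and the recovered reads of a library differed from its implied total by at most 1213. Features at 1 RPKM or more in at least 3 libraries were tested on log2(RPKM + 1) with limma 3.58.1 in R 4.3.3, with 1 mean for each of the 12 groups, a variance trend and Benjamini-Hochberg adjustment over all 28048 features. In all, 10 comparisons were fitted, namely high-oil minus low-oil per stage (6) and as a mean over stages, 40 against 15 days in each line, and the interaction. The test was tried on simulated data, with changes placed only in better-represented features and an equal dispersion for all. That trial therefore does not show how the test performs on low members. Intervals and floors cover counting error only.

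The members and lists were chosen with earlier results of these data known, and the sets of 77, 124 to 126, 156 and 290 to 330 bases and the run of neighbouring IDs were picked after their values were seen. Members named were the 12 with the highest means, up to 8 in each direction with the largest called change in each comparison of lines or ages (for lines, with 1 sign at all 6 stages), those called in both lines or for the interaction, and the 3 on either side of the minimum. Set members named beside them were chosen after their values were seen. The alternative without 3 libraries unlike their group in the 156-base set was also chosen after seeing the data. ENSRNA IDs were found 0 times in the RefSeq gene table supplied, so no class, position or sequence is given. Alternatives were another scaling, pseudocount and filter, the compared groups alone, a replicate block, limma-voom, and libraries left out.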

Additional observations from a re-analysis of the deposited data

Results flagged for a closer look

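The change between 15 and 40 days differed between the lines, by the interaction test, in 3 members. ENSRNA049477719 changed by 3.20 more on the log2 scale in the high-oil than in the low-oil line, rising in the first and falling in the second. ENSRNA049461520 changed by 2.27 more in the high-oil line, where it had no read at either age, and fell in the low-oil line. ENSRNA049469912 changed by -1.63 in the high-oil relative to the low-oil line, having 3 reads in all in the low-oil line. Its 3 highest libraries, through which it met the minimum, were the high-oil ones at 15 days. The first kept its call when each library was left out in turn, and no cause was tested for any of them.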

How the results depend on the processing

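Of 58 calls of named members, 0 changed direction under any alternative run, and 18 were lost when some single library was left out. Calls lost numbered 14 of 42 with the compared groups alone, 10 with no filter on low values, 8 with a pseudocount of 0.1, 7 with limma-voom and 4 with median-of-ratios scaling. They numbered 11 without the 3 libraries least like their group over all features, and 6 without the 3 unlike it in the 156-base set. Counts of members called moved by more than 1.5 times in few cases, and the cause was not tested. For the line difference averaged over stages, limma-voom called 67 and a pseudocount of 0.1 called 70, against 37, while calls over all features were 3702 and 3451, against 1634. With a minimum of 5 RPKM, which tests fewer members, 15 were called at 15 days, against 24. With no filter, 15 were called at 30 days, against 23, and 17 (8 higher and 9 lower) between ages in the low-oil line, against 28 (16 and 12), where the compared groups alone gave 14. The interaction gave 1 with a pseudocount of 0.1, a minimum of 5 RPKM or limma-voom, 5 without the 3 libraries least like their group over all features, and 7 without the 3 unlike it in the 156-base set, against 3. Leaving out each library in turn gave 34 to 39 for the average over stages, 15 to 24 at 30 days, 15 to 27 at 40 days, 28 to 40 and 25 to 31 for age in the high-oil and low-oil lines, and 3 to 5 for the interaction (5 without high-oil replicate 3 at 35 days, high-oil replicate 1 at 40 days or low-oil replicate 3 at 15 days). Samples shared only a replicate number: over 18 same-numbered pairs of 1 stage the correlation of deviations ran from -0.30 to 0.39. With the replicate number as a block, 37 were called for the average over stages, 40 and 28 for age in the high-oil and low-oil lines, and 1 of the 58 named calls was lost. The fit of the compared groups alone was not run for the average over stages, which uses all groups. The median member had 9 reads per library, which limits the precision of single values.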
